A study of Mus musculus with 34 samples.

Results

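The interferon response genes described here are 35 genes that cells switch on when an interferon reaches them. They were chosen by gene symbol from a list of known members, with earlier results of these data known. All 35 were found among the 48795 genes of the deposited count table, and all 35 passed the filter on low counts. RNA was counted in neuron-enriched cells of the L4 to L6 dorsal root ganglia of mice aged 8 to 12 weeks, 3 days after crush of the left sciatic nerve. Each of 17 mice gave 1 library from the injured side and 1 from the uninjured side, called naive. The ATF3-cKO group held 8 mice (5 female, 3 male) labelled Adv-Cre-positive with both Atf3 alleles floxed (ATF3-fl_homo), in which Cre under the Advillin (Avil) gene, active in sensory neurons, removes exon 3 of Atf3, the gene of a transcription factor that injured sensory neurons switch on. The ATF3-wt group held 9 mice with a working Atf3 gene. Of these, 4 females were Cre-negative with 1 floxed allele (ATF3-fl_het), 2 females were Cre-negative and wild type, and 3 males were Cre-positive and wild type. Sex and Cre thus cannot be told apart among the wt mice. All 8 cKO mice were Cre-positive and all wt females Cre-negative, so ATF3 loss and Cre cannot be told apart in females. In males both genotypes were Cre-positive. Comparisons of cKO with wt over all mice thus mix ATF3 loss with Cre. A mouse is written as its genotype and animal number (cKO-131).

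Interferons are secreted proteins of antiviral defence. Type I interferons bind the receptor pair Ifnar1 and Ifnar2, whose kinases Jak1 and Tyk2 phosphorylate STAT proteins, among them Stat2. With Irf9 these bind a DNA element, the interferon-stimulated response element (ISRE), in the promoters of target genes. Interferon gamma acts through other receptors and another element, the gamma-activated site (GAS). The proteins made sense viral RNA, degrade it, block translation or tag other proteins. Some, such as Usp18, shut the pathway down again.

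RefSeq promoter windows of GRCm38.p6, from 250 bases before to 50 bases after a gene's start, were held for 25 of the 35 members. The ISRE core was searched as GAAA, any 2 bases and GAAA again, and GAS as TTCNNNGAA, on both strands. An ISRE core stood in the windows of 15 of the 25 members (60.0%), against 3.99% of 27025 genes with a window, and a GAS in 7 (28.0%), against 9.55% of genes. In 4 members ISRE matches overlapped each other, and in 1, Bst2, a GAS overlapped an ISRE. The windows below belong to the 6 members with the smallest p among those called in any comparison that have a window. They are shown because the ISRE is the element through which the pathway is known to act, written 5′ to 3′ on the gene's strand with ISRE matches in capitals.
Ifit1, chr19:34640639-34640938, plus strand: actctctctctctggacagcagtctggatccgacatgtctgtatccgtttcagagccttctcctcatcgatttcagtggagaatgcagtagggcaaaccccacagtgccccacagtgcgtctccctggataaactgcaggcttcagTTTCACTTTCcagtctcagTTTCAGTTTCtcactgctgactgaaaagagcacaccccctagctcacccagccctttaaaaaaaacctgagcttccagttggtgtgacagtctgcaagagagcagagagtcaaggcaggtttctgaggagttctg
Oas1a, chr5:120907476-120907775, minus strand: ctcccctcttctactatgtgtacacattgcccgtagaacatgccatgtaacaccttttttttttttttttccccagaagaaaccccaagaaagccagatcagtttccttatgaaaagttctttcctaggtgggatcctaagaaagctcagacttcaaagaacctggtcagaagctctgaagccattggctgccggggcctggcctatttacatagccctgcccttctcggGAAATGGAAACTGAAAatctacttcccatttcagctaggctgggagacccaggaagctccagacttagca
Stat2, chr10:128270248-128270547, plus strand: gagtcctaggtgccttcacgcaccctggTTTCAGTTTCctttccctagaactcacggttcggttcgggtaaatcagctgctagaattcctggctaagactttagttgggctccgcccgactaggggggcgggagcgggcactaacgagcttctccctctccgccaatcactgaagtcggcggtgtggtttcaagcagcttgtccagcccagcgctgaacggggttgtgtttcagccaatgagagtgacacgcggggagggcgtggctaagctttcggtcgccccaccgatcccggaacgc
Eif2ak2, chr17:78882523-78882822, minus strand: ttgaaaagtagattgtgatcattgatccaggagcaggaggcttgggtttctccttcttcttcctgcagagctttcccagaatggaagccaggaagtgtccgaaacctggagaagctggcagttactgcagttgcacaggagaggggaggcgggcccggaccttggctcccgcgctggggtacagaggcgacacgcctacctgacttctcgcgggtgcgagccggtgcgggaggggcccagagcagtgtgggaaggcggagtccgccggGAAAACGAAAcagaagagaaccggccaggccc
Xaf1, chr11:72301379-72301678, plus strand: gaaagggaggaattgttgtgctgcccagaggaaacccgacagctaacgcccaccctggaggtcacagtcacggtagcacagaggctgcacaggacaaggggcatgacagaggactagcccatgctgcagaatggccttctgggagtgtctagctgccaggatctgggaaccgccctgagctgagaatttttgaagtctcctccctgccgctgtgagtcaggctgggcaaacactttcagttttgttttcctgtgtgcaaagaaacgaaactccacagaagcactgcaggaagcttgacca
Cmpk2, chr12:26468965-26469264, plus strand: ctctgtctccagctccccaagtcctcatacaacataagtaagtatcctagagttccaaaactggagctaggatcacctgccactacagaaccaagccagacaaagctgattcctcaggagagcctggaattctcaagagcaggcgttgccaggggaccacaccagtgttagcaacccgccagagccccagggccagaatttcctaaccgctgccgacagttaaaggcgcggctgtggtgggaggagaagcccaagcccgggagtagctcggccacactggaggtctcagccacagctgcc
Ifit1 had matches starting 104 and 85 bases before its start, Oas1a had overlapping ones at 20 and 14 bases, and that of Stat2 stood 222 bases upstream. The match of Eif2ak2 lay just after its start. The windows of Xaf1 and Cmpk2 held no match to these letters.

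The libraries held 35732193 to 77632944 counts. Atf3, counted over the whole gene, averaged 263 ± 59.5 CPM in cKO injured and 364 ± 145 CPM in wt injured libraries, against 119 ± 25.5 CPM in cKO naive and 125 ± 30.8 CPM in wt naive ones (SD over 8 cKO and 9 wt mice; CPM is the count scaled to a common TMM-adjusted library size). This count does not check the loss of exon 3. By Avil, a pair of mice stood apart from others with their Cre label. Mouse cKO-131 had 88.7 and 83.4 CPM on its injured and naive side, against 432 to 555 CPM in the other Cre-positive mice. Mouse wt-150, labelled Cre-negative, had 517 and 499 CPM, against 792 to 1036 CPM in the other Cre-negative mice. Counts of members with an adjusted p under 0.05 are given below with and without both mice where they differ. Counts on the spacers of ribosomal RNA genes, a sign of total RNA carried along, took 3.24 to 11.34% of a library, low in 6 mice and high in 11. The summed CPM of the 35 members had a median of 722 in cKO injured and 608 in cKO naive libraries, against 608 in wt injured and 564 in wt naive ones.

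Per kilobase of exon, which allows levels of different genes to be compared, Ifi27, a small mitochondrial membrane protein, was the most abundant member in wt naive libraries at 47.4 CPM per kb. The transcription factor genes Irf1 and Stat2 followed with 15.3 and 12.1 CPM per kb. At the low end stood Zbp1, Oas3 and Oas2 with 0.113, 0.105 and 0.0904 CPM per kb, and Oas2 rested on 206 counts over the 9 wt naive libraries.

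The injured and naive sides were compared within each genotype to find how the pathway's targets behave after axon injury. In ATF3-cKO mice 1 of the 35 members, Eif2ak2, rose on the injured side and none fell, where 2.61% of all 19565 tested genes rose and 0.583% fell (3.19% together). In ATF3-wt mice 12 members rose and 1, Cmpk2, fell, where 14.3% of all tested genes rose and 12.7% fell (27% together). A member passed with an adjusted p under 0.05 in edgeR's quasi-likelihood test, adjusted over all tested genes. The members' median log2 fold change was 0.16 in cKO, against 0.02 for all genes, and 0.32 in wt, against 0.02. With the mouse as a block, 5 members rose and 1 fell in cKO, where 4.77% and 3.62% of all genes did, and 16 rose and 2 fell in wt, where 20.8% and 20.1% did. In males no member passed (6 mice), in females none passed in cKO and 3 rose and 1 fell in wt. The members' median on the log2 scale was 0.37 in cKO males and 0.01 in cKO females, and 0.26 in wt males and 0.31 in wt females. In cKO it was 0.29 without cKO-131 and 0.07 without cKO-194. Without cKO-131 and wt-150 the counts were 2 higher in cKO, and 10 higher and 1 lower in wt. The wt injury and cKO injury comparisons use separate libraries.

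**Figure D1:**
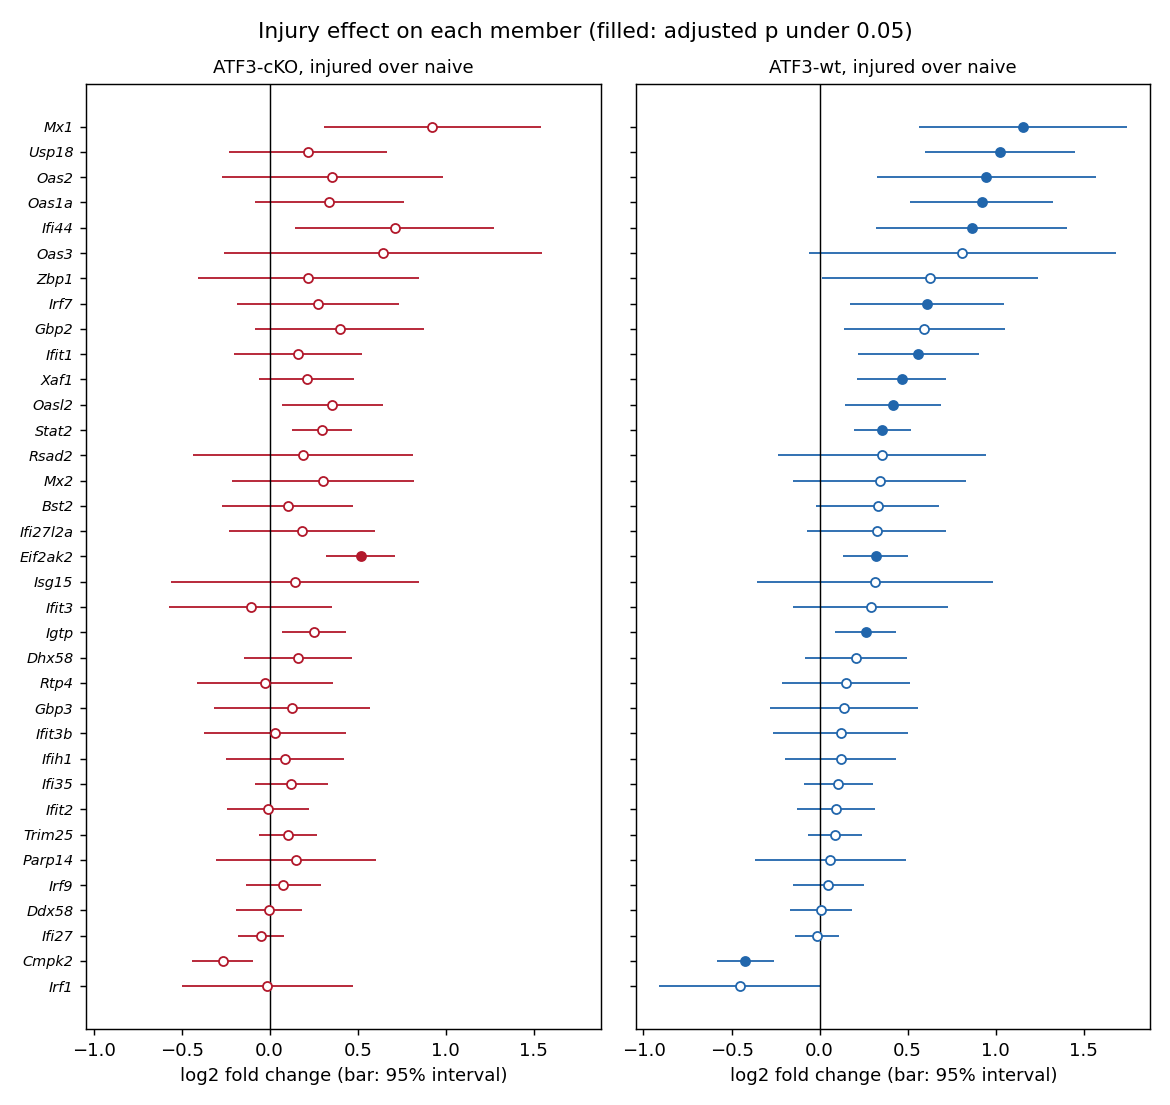
Log2 fold change of injured over naive libraries for the 35 members in ATF3-cKO mice (left) and ATF3-wt mice (right), with bars for the 95% interval. Filled points passed the test: Eif2ak2 in cKO, and 12 members to the right of 0 and Cmpk2 to the left in wt.

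Usp18, the protease that strips the ubiquitin-like Isg15 from proteins and blocks the type I interferon receptor, had the smallest p of the members that rose in wt mice. It lay between 2.08 and 5.21 CPM in cKO injured libraries (median 3.23) and between 1.22 and 6.70 CPM in cKO naive ones (median 2.76), against 2.80 to 6.80 CPM in wt injured (median 4.35) and 0.836 to 2.91 CPM in wt naive ones (median 2.06). All 9 wt mice were higher on the injured side, as were 5 of 8 cKO mice, and the groups overlapped. On the log2 scale injury changed it by 0.22 in cKO (SE 0.23; edgeR adjusted p = 0.793) and by 1.03 in wt (SE 0.22; adjusted p = 0.000542). The highest naive cKO value, 6.70 CPM, belonged to cKO-131. Isg15, the protein modifier that Usp18 removes, did not pass in either genotype, at 3.89 ± 2.00 CPM in cKO injured, 3.73 ± 2.10 CPM in cKO naive, 3.13 ± 1.59 CPM in wt injured and 2.48 ± 1.27 CPM in wt naive libraries.

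The oligoadenylate synthetases make short adenylate chains that switch on an RNA-degrading enzyme. Oas1a had 0.944 to 3.06 CPM in cKO injured (median 2.06) and 0.743 to 2.95 CPM in cKO naive libraries (median 1.505), against 1.45 to 3.98 CPM in wt injured (median 2.31) and 0.669 to 1.81 CPM in wt naive ones (median 1.06). It was higher on the injured side in 7 of 8 cKO and 9 of 9 wt mice. In cKO the log2 ratio of the sides was 0.34 (SE 0.22; adjusted p = 0.546), and in wt it was 0.92 (SE 0.21; adjusted p = 0.000936). Of its 50-base runs, 57.6% also stand in other genes, most of all Oas1g, so its count is uncertain. Oas2 stood at 0.36 in cKO (SE 0.32; adjusted p = 0.735) and rose by 0.95 in wt (SE 0.32; adjusted p = 0.0239), a call that ended without wt-146, wt-150 or wt-195 (adjusted p up to 0.0757). Oasl2, an OAS-like protein, had 40.4 to 67.6 CPM in cKO injured and 28.7 to 58.7 CPM in cKO naive libraries, against 26.0 to 74.8 CPM in wt injured and 19.0 to 42.2 CPM in wt naive ones. Fitted values were 0.36 in cKO (SE 0.15, adjusted p = 0.246, and 0.00424 with the mouse as a block) and 0.41 in wt (SE 0.14, adjusted p = 0.0244), and the wt call ended without wt-146 or wt-176 (adjusted p = 0.0512 and 0.067). Oas3 did not pass, with 0.64 in cKO (SE 0.46) and 0.81 in wt (SE 0.45).

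Mx1, a dynamin-like GTPase that traps viral components, had the largest fold change of the members in both genotypes. It counted 0.604 to 1.39 CPM in cKO injured (median 1.06) and 0.201 to 1.10 CPM in cKO naive libraries (median 0.458), against 0.406 to 1.55 CPM in wt injured (median 1.01) and 0.236 to 0.814 CPM in wt naive ones (median 0.425). Its sides overlapped in both genotypes, with 7 of 8 cKO and 7 of 9 wt mice higher on the injured side. Mx1 stood at a log2 ratio of 0.92 in cKO (SE 0.31, adjusted p = 0.119, and 0.0363 with the mouse as a block) and 1.16 in wt (SE 0.30, adjusted p = 0.00404). Mx2, annotated in GENCODE as a polymorphic pseudogene, did not pass, at 0.30 in cKO and 0.34 in wt.

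Among the transcription factors, Stat2 rose in wt. Its levels were 78.6 to 108 CPM in cKO injured (median 96.3) and 64.5 to 107 CPM in cKO naive libraries (median 70.8), against 79.7 to 123 CPM in wt injured (median 88.7) and 57.1 to 81.7 CPM in wt naive ones (median 72.5). It was higher on the injured side in 7 of 8 cKO and 9 of 9 wt mice. Fitted log2 changes were 0.30 in cKO (SE 0.09, adjusted p = 0.0529, and 0.0054 with the mouse as a block) and 0.36 in wt (SE 0.08, adjusted p = 0.0012). In cKO it also passed without cKO-131, without cKO-192 or without wt-176 (adjusted p = 0.00989, 0.046 and 0.0259). Irf7, the amplifier of the type I response, ran from 5.04 to 13.5 CPM in cKO injured (median 8.94) and 3.08 to 17.1 CPM in cKO naive libraries (median 7.22), against 4.65 to 18.4 CPM in wt injured (median 9.07) and 2.40 to 8.65 CPM in wt naive ones (median 5.71). Its sides overlapped in both genotypes, and injury moved it by 0.28 in cKO (SE 0.23, adjusted p = 0.712) and 0.61 in wt (SE 0.22, adjusted p = 0.0397). That wt call ended without cKO-130, wt-139, wt-146, wt-150, wt-172, wt-176 or wt-195, left out singly, with an adjusted p of up to 0.112. Irf9, the DNA-binding partner of Stat2, did not pass in either genotype (0.08 and 0.05).

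Irf1, an early target of interferon gamma, did not pass in either genotype. Levels were 27.7 to 111 CPM in cKO injured (median 54.9) and 19.7 to 87.0 CPM in cKO naive libraries (median 66.1), against 21.5 to 68.8 CPM in wt injured (median 41.2) and 24.3 to 82.3 CPM in wt naive ones (median 64.2). All 9 wt mice were lower on the injured side, as were 5 of 8 cKO mice. In the fit its log2 change was -0.01 in cKO (SE 0.25) and -0.45 in wt (SE 0.23, adjusted p = 0.161), which passed with the mouse as a block (adjusted p = 0.0127) and with the spacer share as a covariate (0.0379).

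Eif2ak2, the RNA-activated kinase PKR that halts translation, passed in both genotypes. It lay at 31.1 to 58.4 CPM in cKO injured (median 43.0) and 27.0 to 33.7 CPM in cKO naive libraries (median 31.5), against 31.6 to 44.5 CPM in wt injured (median 33.5) and 21.7 to 35.7 CPM in wt naive ones (median 27.5). It was higher on the injured side in 7 of 8 cKO and 9 of 9 wt mice. Its fitted log2 change was 0.52 in cKO (SE 0.10, adjusted p = 0.0014) and 0.32 in wt (SE 0.10, adjusted p = 0.0115), and it passed in both whichever 1 of the 17 mice was left out.

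Cmpk2, a mitochondrial nucleotide kinase and the divergent neighbour of Rsad2 on chromosome 12, fell in wt. It had 21.1 to 28.0 CPM in cKO injured (median 26.2) and 28.2 to 31.8 CPM in cKO naive libraries (median 30.8), against 16.0 to 28.4 CPM in wt injured (median 22.9) and 26.7 to 35.2 CPM in wt naive ones (median 30.4). Every mouse of both genotypes was lower on the injured side, and Cmpk2 was the 1 member whose injured and naive cKO libraries did not overlap, where 0.23% of all tested genes lay lower on the injured side with no overlap. Fitted changes were -0.27 in cKO (SE 0.09, adjusted p = 0.105, and 0.0245 with the mouse as a block) and -0.42 in wt (SE 0.08, adjusted p = 0.000223). Rsad2 itself, which encodes the antiviral enzyme viperin, did not pass in either genotype, at 0.19 in cKO (SE 0.32) and 0.35 in wt (SE 0.30).

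The Ifit proteins bind foreign RNA and keep it from being translated. Ifit1 had 22.5 to 44.1 CPM in cKO injured and 17.7 to 40.4 CPM in cKO naive libraries, against 22.6 to 37.9 CPM in wt injured and 13.9 to 35.5 CPM in wt naive ones. It rose in wt (log2 fold change 0.56, SE 0.18, adjusted p = 0.0152; adjusted p = 0.054 without wt-146) and did not pass in cKO (0.16, SE 0.19). Ifit2 had a median of 34.1 CPM in cKO injured and 33.4 CPM in cKO naive libraries, against 33.8 CPM in wt injured and 30.3 CPM in wt naive ones. It, Ifit3 and Ifit3b, which stand beside Ifit1 on chromosome 19, did not pass. Ifit3 and Ifit3b share 51.2% and 45.0% of their 50-base runs with other genes, most of all with each other, so reads may have been split between them. Ifi44, a GTPase-like antiviral protein, had medians of 2.81 CPM in cKO injured and 1.75 CPM in cKO naive libraries, against 2.08 CPM in wt injured and 1.25 CPM in wt naive ones. Its log2 change was 0.71 in cKO (SE 0.29; adjusted p = 0.234) and 0.86 in wt (SE 0.28; adjusted p = 0.0179). Xaf1, a pro-apoptotic protein, stood at 0.21 in cKO (SE 0.14; adjusted p = 0.565) and rose by 0.47 in wt (SE 0.13; adjusted p = 0.00677).

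Ifih1 and Ddx58, the RNA helicases MDA5 and RIG-I, and Dhx58, their relative LGP2, did not pass in either genotype, with Ddx58 at -0.00 in cKO and 0.01 in wt on the log2 scale. Of the GTPases typical of interferon gamma, Igtp stood at 0.25 in cKO (SE 0.09; adjusted p = 0.173, and 0.0432 with the mouse as a block) and rose in wt by 0.26 (SE 0.09; adjusted p = 0.0246). The wt call of Igtp ended without wt-139, wt-150 or wt-172 (adjusted p up to 0.0958), and its exons overlap Irgm2. Gbp2 did not pass in wt (0.59, SE 0.23, adjusted p = 0.0555, and 0.0053 with the mouse as a block), and it passed without cKO-163, cKO-194, wt-141 or wt-155. Zbp1, a sensor of Z-form nucleic acid that triggers cell death, Bst2, which tethers budding viruses, and Ifi27l2a did not pass in either genotype, and in wt they passed with the mouse as a block (adjusted p = 0.0203, 0.0191 and 0.0142). Trim25, the ligase that activates RIG-I, had medians of 51.2 CPM in cKO injured and 45.7 CPM in cKO naive libraries, against 48.5 CPM in wt injured and 43.5 CPM in wt naive ones, with overlap in both genotypes. Ifi27 had medians of 69.8 CPM in cKO injured and 71.8 CPM in cKO naive libraries, against 65.3 CPM in wt injured and 67.9 CPM in wt naive ones. Neither passed, nor did Gbp3, Parp14, Ifi35 or Rtp4, whose fitted log2 changes lay within -0.03 to 0.15 in cKO and 0.06 to 0.15 in wt.

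**Figure D2:**
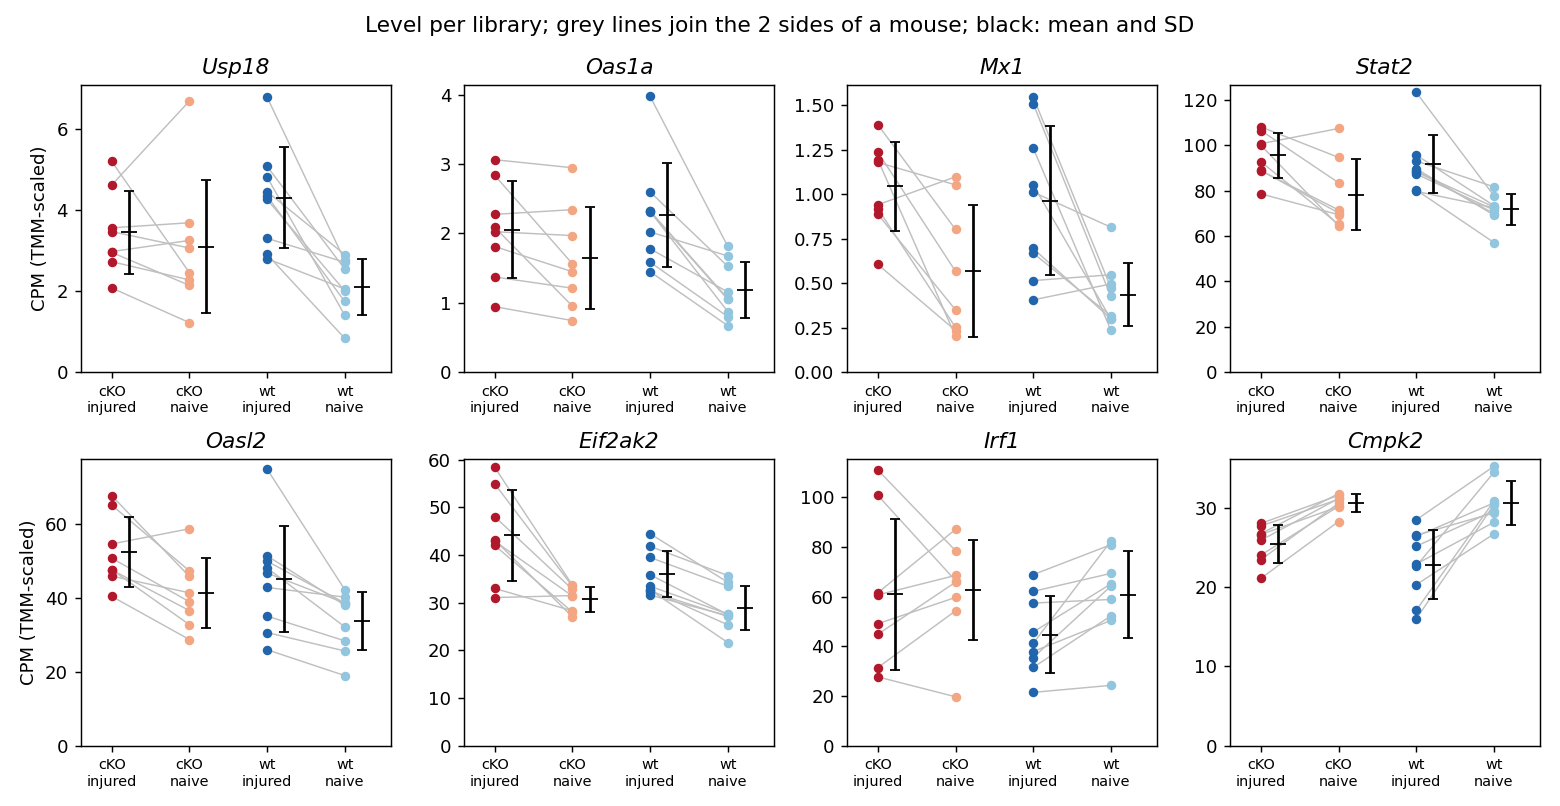
CPM in each library for 8 members, with the groups from left to right cKO injured, cKO naive, wt injured and wt naive, grey lines joining the sides of a mouse and black marks for the mean and SD (8 cKO and 9 wt mice). Cmpk2 is lower on the injured side in every mouse, and Eif2ak2 is higher in all 9 wt and 7 of 8 cKO mice.

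Of the cell type marker lists, that of macrophages moved most with these comparisons. Of 16 macrophage markers none passed in cKO injured against cKO naive libraries, while 13 rose in wt injured against wt naive ones. Of all tested genes 2.61% rose in cKO and 14.3% in wt. Cx3cr1, a chemokine receptor of macrophages, averaged 0.956 ± 0.507 CPM in cKO injured and 0.655 ± 0.263 CPM in cKO naive libraries, against 2.51 ± 1.15 CPM in wt injured and 0.465 ± 0.272 CPM in wt naive ones. The summed macrophage level ran from 36.4 to 206 CPM in cKO injured, 28.0 to 110 CPM in cKO naive, 38.7 to 151 CPM in wt injured and 7.58 to 69.4 CPM in wt naive libraries, and no macrophage marker was at 0 throughout a group. Of 10 neutrophil markers none passed in cKO and 1, Ly6g, rose in wt. No lymphocyte, endothelial, Schwann cell or fibroblast marker passed in either genotype. In wt only, 1 satellite glia marker rose, and 1 sensory neuron marker rose and 3 fell (2 without cKO-131 and wt-150). In these bulk libraries more cells of a type and more RNA per cell cannot be told apart, and the part of these cells in the interferon result was not tested.

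The difference between the injury effects asked whether the response differs between cKO and wt mice, which in females also differ in Cre. In edgeR's quasi-likelihood test none of the 35 members passed, where 0.695% of all genes had a higher and 2.15% a lower injury effect in cKO than in wt (2.84% together). At an unadjusted p under 0.05, 1 member, Usp18, was lower, where 7.55% of all genes were, and DESeq2 called 0. The members' median difference, cKO minus wt, was -0.10 on the log2 scale with 7 members above 0, and without cKO-131 and wt-150 it was 0.02 with 20 above 0. In females alone it was -0.18 with 5 above 0, and in males alone 0.07 with 21 above 0. Usp18 differed by -0.80 (95% interval, from 1.96 SE, -1.42 to -0.19, adjusted p = 0.209), and with the mouse as a block by -0.81 (adjusted p = 0.0439), where 3.25% of all genes were higher and 4.29% lower. Oas1a differed by -0.58 (interval -1.17 to 0.00). For Stat2 the interval was -0.29 to 0.17 and for Oasl2 -0.45 to 0.34. For Mx1 it was -1.08 to 0.61, which leaves room for a large difference in either direction. All these intervals come from the fit without the mouse as a block, which does not use the pairing of the sides.

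On the injured side, cKO was compared with wt. None of the 35 members passed, where 3.57% of all genes were higher and 7.55% lower in cKO (11.1% together). At an unadjusted p under 0.05, 5 members were higher in cKO, where 10.2% of all genes were, and DESeq2 called 1, Eif2ak2 (adjusted p = 0.0374). Eif2ak2 stood at 44.2 ± 9.53 CPM in cKO injured and 36.0 ± 4.74 CPM in wt injured libraries, 0.29 higher on the log2 scale (95% interval 0.09 to 0.48, adjusted p = 0.0545) that passed without cKO-131, cKO-192, cKO-194 or wt-175, and not without the other mice. The members' median was 0.22, against 0.02 for all genes, and 33 of 35 lay above 0. Without cKO-194 the median was 0.09, and within the 6 mice with a low share of ribosomal RNA spacer counts it was -0.04. Macrophage markers were lower in cKO on this side, 5 of 16 passing, with C1qb at 2.00 ± 1.29 CPM in cKO injured and 4.23 ± 1.15 CPM in wt injured libraries. The summed neutrophil level had a median of 177 CPM in cKO injured and 89.3 CPM in wt injured libraries, and no neutrophil marker passed. The satellite glia marker Glul was lower in cKO injured libraries, and the lymphocyte marker Cd79a was higher. These calls held in 17 and 7 of 17 single-mouse omissions. This comparison shares its libraries with the injury comparisons above.

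On the naive side none of the 35 members passed, and 0% of all 19565 genes did in either direction. At an unadjusted p under 0.05, 13 members were higher in cKO, where 2.11% of all genes were, and DESeq2 called 0. The members' median was 0.30 on the log2 scale, against -0.00 for all genes, and 34 lay above 0. Oas2 stood at 0.863 ± 0.645 CPM in cKO naive and 0.402 ± 0.187 CPM in wt naive libraries, 1.10 higher on the log2 scale (SE 0.32; adjusted p = 1). Without cKO-131 the members' median was 0.19, and within the low spacer mice it was 0.01 and within the high ones 0.50. The summed macrophage level had a median of 55.1 CPM in cKO naive and 33.0 CPM in wt naive libraries.

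Most members were high or low together within a mouse. Eif2ak2 went the other way on the injured side. Its lowest cKO value was in cKO-131 (31.1 CPM) and its highest wt value in wt-172 (44.5 CPM). On the naive side cKO-131 was the highest of 17 mice for 30 of the 35 members, with a median log2 ratio of 0.97 to the median of all mice of that side. On the same side wt-172 was the lowest for 22 members, at -1.02. On the injured side cKO-163 was the lowest for 13 members and wt-172 for 10, while cKO-131 and wt-176 were each the highest for 8 and cKO-194 for 7. Of the 17 mice, 13 lay on the same side of the median in both ganglia, and 10 members had their highest and 11 their lowest value in the same mouse on both sides. The same counts over all tested genes were not made, so these are not shown to be particular to the members. Since most members rise and fall together in a mouse, the counts of members above 0 are not independent observations.

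**Figure D3:**
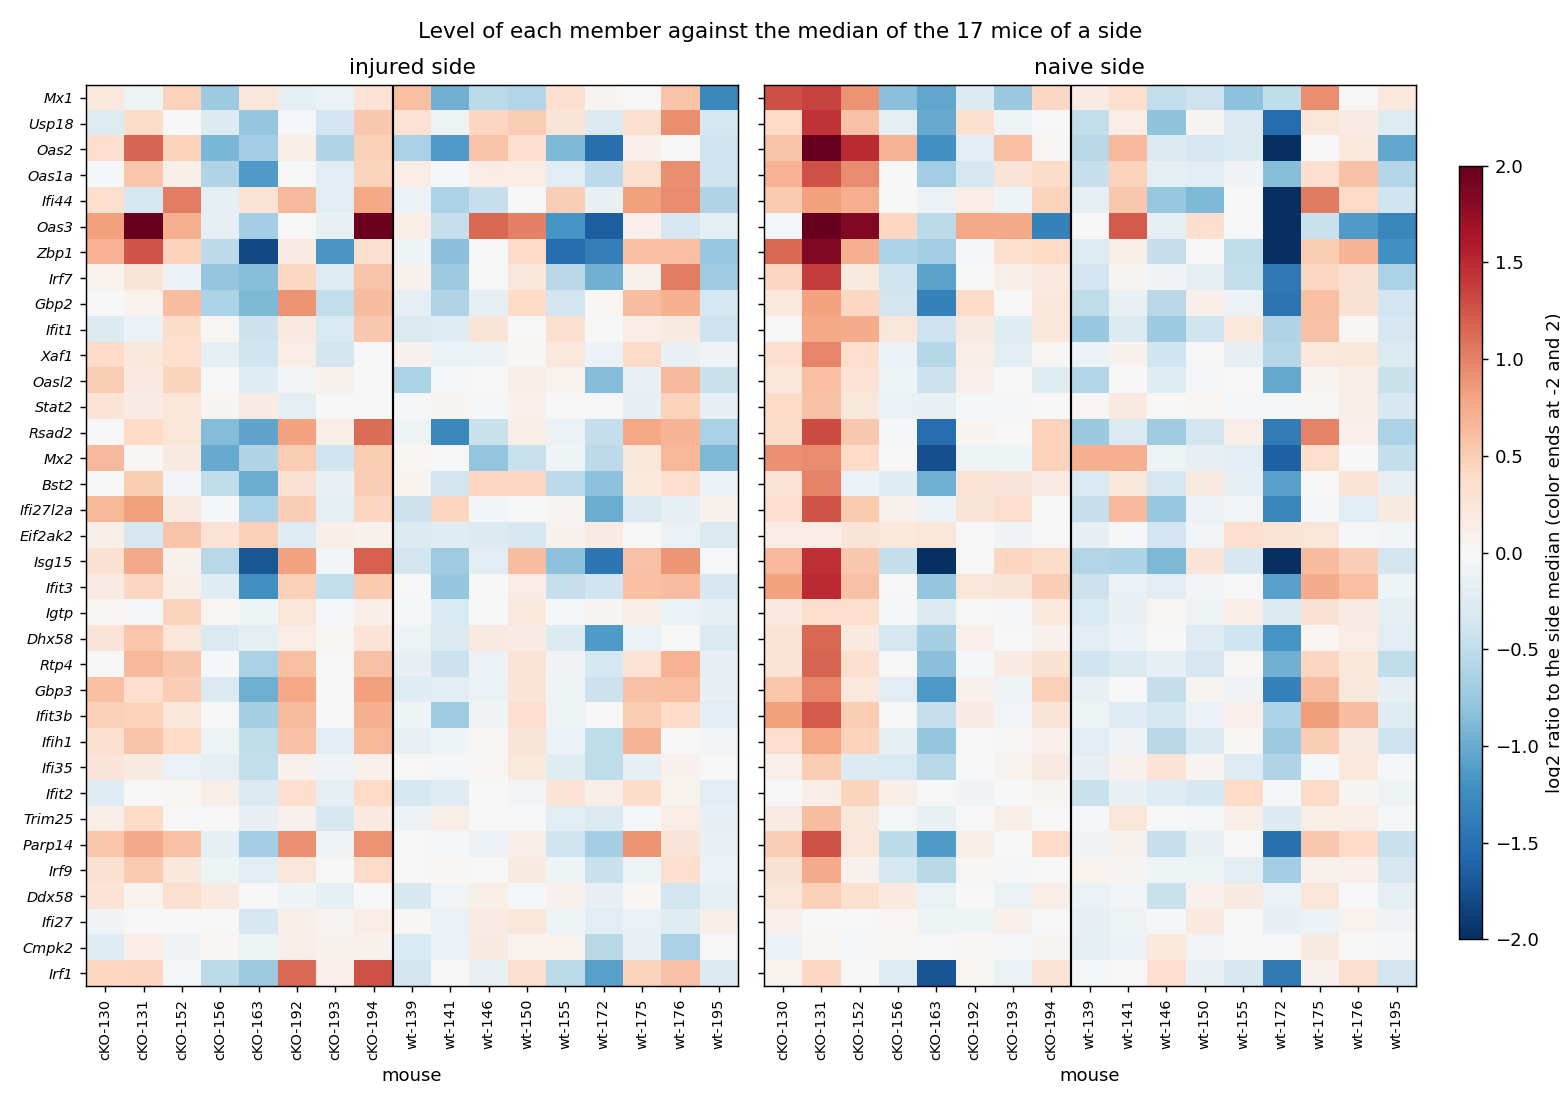
Log2 ratio of each member to the median of the 17 mice of a side, injured on the left and naive on the right, after adding 0.01 CPM, with cKO mice left of the black line and wt mice right of it. The red column of cKO-131 and the blue column of wt-172 on the naive side cover most members.

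Other cells' markers moved with these mice as well. Among cKO naive libraries cKO-131 had the highest summed level of macrophage (110 CPM), lymphocyte (5.93 CPM), endothelial (259 CPM), satellite glia (1766 CPM), Schwann cell (726 CPM) and fibroblast markers (646 CPM), and the lowest of sensory neuron markers (8872 CPM). Among wt naive libraries wt-172 had the lowest for macrophages (7.58 CPM), neutrophils (13.1 CPM), lymphocytes (0.799 CPM), endothelium (66.2 CPM), satellite glia (694 CPM) and fibroblasts (48.1 CPM). Their part in the members' levels was not tested. Females had the higher median for 30 members in cKO injured, 31 in cKO naive, 30 in wt injured and 30 in wt naive libraries. The share of all genes for which this held was not determined. Sex overlapped with Cre in the wt mice and with the ribosomal spacer share in both genotypes.

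The ligands that start the pathway were near or at the limit of counting. Of 10 interferon genes in the table none passed the filter on low counts, and Ifna1, Ifna2, Ifna4, Ifna5, Ifnl2 and Ifnl3 had no count in any library. Ifng, made by lymphocytes, had 6 counts over the 8 cKO injured and 2 over the 8 cKO naive libraries, against 10 over the 9 wt injured and 4 over the 9 wt naive ones. Ifnb1, the type I interferon of most cells, had 3 and 8 counts in cKO injured and naive libraries, against 4 and 1 in wt injured and naive ones.

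Of 6 receptor genes, Ifnlr1, the interferon lambda receptor, was higher in cKO injured than in wt injured libraries, at 2.22 ± 0.475 and 1.17 ± 0.374 CPM (log2 fold change 0.93, SE 0.18, adjusted p = 0.000402). It also rose with injury in cKO, by 0.69 (adjusted p = 0.0251), a call that ended without cKO-130, cKO-163, cKO-193 or cKO-194. Il10rb, the receptor chain that interferon lambda shares with interleukin 10, was lower in cKO injured than in wt injured libraries, at 28.7 ± 1.85 and 33.5 ± 2.14 CPM (-0.22, SE 0.05, adjusted p = 0.000977). Ifngr2, a chain of the interferon gamma receptor, was lower in the same comparison, at 48.7 ± 3.08 and 56.4 ± 3.16 CPM (-0.21, SE 0.04, adjusted p = 0.00112). The injury effects of both differed between the genotypes, by -0.26 (adjusted p = 0.0241) and -0.22 (adjusted p = 0.046). The first call ended without cKO-130, cKO-193, wt-139 or wt-172, and the second held in 4 of 17 single-mouse omissions. Il10rb and Ifnar2 rose with injury in wt, Ifnar2 by 0.29 (adjusted p = 0.00953). Both rises passed whichever 1 mouse was left out (adjusted p up to 0.00588 for Il10rb and 0.0278 for Ifnar2).

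Of 9 signalling genes, Stat3, a factor of the interleukin 6 family response, rose in cKO by 0.18 (adjusted p = 0.0138; 0.0701 without cKO-163) and in wt by 0.27 (adjusted p = 6.16e-06). Jak2 rose by 0.45 in wt (adjusted p = 0.00454). Of the other regulatory factors, Irf2 fell in wt by 0.26 on the log2 scale (adjusted p = 0.00681). Among 13 measured nucleic acid sensors and adaptors, Sting1 (Tmem173 in the table), the adaptor of cytosolic DNA sensing, rose in every mouse. It averaged 13.4 ± 2.21 CPM in cKO injured and 5.23 ± 0.995 CPM in cKO naive libraries, against 13.3 ± 2.44 CPM in wt injured and 4.75 ± 1.00 CPM in wt naive ones. Sting1 rose on the log2 scale by 1.37 in cKO (SE 0.13, adjusted p = 9.39e-09) and 1.49 in wt (SE 0.12, adjusted p = 7.26e-11), and held whichever mouse was left out. Tlr7, an RNA sensor of endosomes, rose in wt by 1.34 (adjusted p = 0.000783).

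Of 43 other interferon-stimulated genes tested, 1, Ube2l6 (0.33, adjusted p = 0.0367), rose with injury in cKO and 8 rose in wt, and none fell. These are 2.3% of the list in cKO and 18.6% in wt, against 2.61% and 14.3% of all genes. The cKO call of Ube2l6 held in 10 of 17 single-mouse omissions (adjusted p up to 0.114). Irgm2 and Ube2l6 were higher in cKO injured than in wt injured libraries, where 3.57% of all genes were. These calls held in 6 and 8 of 17 single-mouse omissions. Ifi204 and Aim2, which sense DNA in myeloid cells, led the wt rise with 1.86 (SE 0.29, adjusted p = 1.15e-05) and 2.17 (SE 0.38, adjusted p = 4.62e-05). Their injury effects were smaller in cKO, by -1.503 (adjusted p = 0.0424) and -2.02 (adjusted p = 0.0291). Without cKO-131 and wt-150 both missed the threshold (adjusted p = 0.0828 and 0.0565), and in fits without 1 mouse they passed in 4 and 9 of 17. Trim30a rose in wt by 1.04 (adjusted p = 0.00592). Of 17 antigen presentation genes 1, the class I light chain gene B2m, rose in wt by 0.42 (adjusted p = 0.0149; 0.0584 without wt-172), and none passed in cKO.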

How the data were processed

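RNA of 34 libraries from 17 mice was measured as raw counts per gene, deposited by the authors for 48795 Ensembl genes. Per the labels' protocols, cells of dissociated ganglia were enriched on 20% Percoll, and stranded paired-end libraries were built from the total RNA. Per the submitters' processing notes, bcl2fastq 2.20, STAR, HTSeq and GRCm38 were used. For strandedness in counting, annotation release and remaining versions, nothing was given in the sources used here, which leaves counts of overlapping genes and near-identical copies uncertain. Exon lengths, gene types and shared 50-base runs come from GENCODE, and promoters from RefSeq.

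The test was that of edgeR 4.0.16, run in R 4.3.3 (TMM, filterByExpr by group, robust quasi-likelihood F-test, all 34 libraries in 1 model with terms for 4 groups and for sex), leaving 19565 genes with 99.97% of the counts. Adjusted p is Benjamini-Hochberg over these genes, threshold 0.05, and the SE is the log2 fold change over the square root of F. Members and lists were chosen with earlier results of these data known. Every member is accounted for; from other lists up to 4 genes a comparison were named by p, and 1 signalling gene is not reported here. Both sides of a mouse come from 1 animal, so they pair, and their deviations from the group means correlated at 0.501 in the median (lowest 0.00976, over 0.1 in 16 of 17 mice). The alternatives were a mouse block, DESeq2, median-ratio size factors, no filter, no sex term, the share of ribosomal RNA spacer counts as a covariate, subsets by sex and by that share (11 mice high, 6 low), and leaving out mice. The code was tested on simulated libraries drawn without mouse or sex effects, with changes put into the wt injured group. The mouse block and the difference of injury effects were not tested in this way.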

Additional observations from a re-analysis of the deposited data

Results flagged for a closer look

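Values that stood far from the rest of their group were found in 16 of 140 sets of 1 member in 1 group, by Dixon's test at its 95% critical value. Chance gives about 1 in 20 for independent sets of normally spread values. The members move together in a mouse, so the count of 16 cannot be set against that rate. Of the 16, 7 were the naive library of cKO-131: Irf7 at 17.1, Dhx58 at 6.94, Usp18 at 6.70, Xaf1 at 12.2, Ifi27l2a at 7.82, Rtp4 at 9.72 and Trim25 at 67.0 CPM. In the injured library of wt-176, Irf7 stood at 18.4, Stat2 at 123 and Oas1a at 3.98 CPM, above the other wt mice. Among the rest, Ifit2 was high in cKO-152 naive at 44.5 CPM and Cmpk2 low in cKO-130 naive at 28.2 CPM. Parp14 was high in wt-175 injured at 25.7 CPM and Dhx58 low in wt-172 injured at 1.61 CPM. Rsad2 was high in wt-175 naive at 22.7 CPM and Oas3 in wt-141 naive at 1.92 CPM.

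The injury effect differed between the genotypes, by a test of the difference itself, for 7 genes of the lists used here, none of them among the 35 members, where 2.84% of all genes passed. These were 2 of 6 receptor genes, 2 of 44 other interferon-stimulated genes in the table, 2 of 16 macrophage markers and 1 of 8 satellite glia markers. No gene of the remaining lists passed. The differences, cKO minus wt, were -2.02 for Aim2, -1.50 for Ifi204, -0.26 for Il10rb and -0.22 for Ifngr2 on the log2 scale, and, among cell type markers, -1.89 for Cx3cr1, -1.29 for C1qb and -0.71 for the satellite glia gene Glul. Without cKO-131 and wt-150, Aim2, Ifi204 and Glul missed the threshold (adjusted p = 0.0565, 0.0828 and 0.0675), and 3 macrophage markers passed, against 2. With 1 mouse left out at a time, Cx3cr1 passed in 17 of 17 fits, Glul in 9 and C1qb in 7. Glul missed the threshold without wt-139, wt-172 or any cKO mouse but cKO-192 and cKO-194. C1qb missed it without wt-139, wt-150, wt-155, wt-172, wt-175 or any cKO mouse but cKO-130, cKO-131 and cKO-156.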

How the results depend on the processing

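Of the 13 wt injury calls, 8 held in each of the 17 fits that leave out 1 mouse, and no called value changed sign. In those fits the members called numbered 8 to 13 higher and 1 lower in wt, 1 to 2 higher and 0 to 1 lower in cKO, and 0 to 1 higher and 0 lower for cKO over wt injured. For cKO injured over wt injured, 1 member passed as higher with median-ratio size factors, in DESeq2, with the spacer share as a covariate, within the low spacer mice and without cKO-131 and wt-150, against 0. For the wt injury effect the higher members numbered 3 in females, 0 in males, 5 within the high and 5 within the low spacer mice, against 12, and the lower ones 2 with the spacer share as a covariate or the mouse as a block and 0 in males, against 1. For the cKO injury effect the higher ones numbered 2 in DESeq2, with the spacer share as a covariate, within the low spacer mice and without cKO-131 and wt-150, 5 with the mouse as a block and 0 in females or males, against 1, and the lower 1 with the block, against 0. For the difference, 1 member passed as lower with the block, against 0. The block changed no other call of a member than those given above. Fits of subsets hold fewer mice. For the other calls that ended, the cause was not tested.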
